A study of Mus musculus with 2 samples.

Results

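The unfolded protein response and the integrated stress response were described through 36 genes, taken by symbol from the 32285 genes of the count tables. By role they comprised 11 targets of the transcription factor ATF4, 13 chaperones and folding enzymes of the endoplasmic reticulum (ER), 6 genes of ER-associated degradation (ERAD) and 6 sensors and transcription factors. The data were 2 droplet single-cell RNA libraries made with 10x Genomics chemistry. The libraries held viable CD45+ cells sorted from tumours of B16-F10, a mouse melanoma line, taken 14 days after injection and digested with collagenase D and DNase I. One library came from tumours of the DGAT1-knockout (KO) line and the other from WT tumours, and DGAT1 makes triglyceride from diacylglycerol. Each group had 3 tumours per the labels, and no file maps cells to a tumour, so each group counted as 1 sample. The sources used here give neither the number of KO clones nor the strain of the host mice. The labels give the genotype of the tumour line, and the genotype of the host's own immune cells was not stated. With 1 library per group no test was possible, and intervals cover counting error only.

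The unfolded protein response is started by 3 ER membrane sensors, IRE1 (encoded by Ern1), PERK (Eif2ak3) and ATF6. IRE1 splices the Xbp1 transcript, and XBP1 and cleaved ATF6 raise chaperones and ERAD genes. PERK, like GCN2 (Eif2ak4), which senses amino acid shortage, phosphorylates the initiation factor eIF2, which slows general translation while favouring that of ATF4. ATF4 then raises genes of amino acid supply, CHOP (Ddit3) and the feedback phosphatase subunit GADD34 (Ppp1r15a). Because splicing of Xbp1 and translation of Atf4 are not seen in transcript counts, the values below are transcript levels and not activities.

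The promoters are shown as a property of the members that no expression value entered. They set the ATF4 targets and the chaperones apart only in part, since most ATF4 targets and some chaperones held none of the elements searched for. RefSeq promoter sequences (GRCm38.p6, 250 bases before to 50 bases after the start) were matched for 33 of the 36 members and searched on both strands. The ER stress element, CCAAT and CCACG with 9 bases of any kind between them, lay in 7 of 12 chaperone promoters (Hspa5, Hsp90b1, Calr, Canx, Pdia6, Dnajc3 and Creld2), in Syvn1 and in 0 of 11 ATF4 target promoters, against 0.137% of 27025 genes. The related element, ATTGG and CCACG with 1 base between them, lay in Dnajb11 and Herpud1 and in 0.0444% of genes. The ATF4 response element, TGATGNAA, lay in 3 of 11 ATF4 target promoters (Trib3, Chac1 and Asns), in Herpud1 and in 0 of 12 chaperone promoters, against 4.51% of genes. The letters TGACGTGG, bound by XBP1, were found in 0 of 33 members and in 0.714% of genes. In the 6 promoters below, capitals mark the matches, which read TTNCATCA, or CGTGG before ATTGG, where the motif lies on the opposite strand, and no matches overlap. Trib3, Chac1 and Asns carry the ATF4 element, Hspa5 and Hsp90b1 (with a pair of matches) the ER stress element, and Herpud1 the ATF4 element and the related element. In order, the promoters lie at chr2:152344011-152344310 (minus strand), chr2:119350992-119351291 (plus), chr6:7693160-7693459 (minus), chr2:34771840-34772139 (plus), chr10:86705395-86705694 (minus) and chr8:94386179-94386478 (plus). A match describes letters only.
Trib3: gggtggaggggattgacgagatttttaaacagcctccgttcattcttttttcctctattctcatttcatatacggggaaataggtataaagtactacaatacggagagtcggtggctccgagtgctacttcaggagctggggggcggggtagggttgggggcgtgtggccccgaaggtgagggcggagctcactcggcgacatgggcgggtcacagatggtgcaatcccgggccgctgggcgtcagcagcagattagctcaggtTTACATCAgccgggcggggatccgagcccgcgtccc
Chac1: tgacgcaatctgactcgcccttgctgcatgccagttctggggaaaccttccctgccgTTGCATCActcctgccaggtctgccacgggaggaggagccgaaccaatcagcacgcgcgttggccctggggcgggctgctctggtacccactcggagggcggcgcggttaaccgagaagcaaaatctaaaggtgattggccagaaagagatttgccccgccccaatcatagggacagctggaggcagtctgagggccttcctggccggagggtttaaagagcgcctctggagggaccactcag
Asns: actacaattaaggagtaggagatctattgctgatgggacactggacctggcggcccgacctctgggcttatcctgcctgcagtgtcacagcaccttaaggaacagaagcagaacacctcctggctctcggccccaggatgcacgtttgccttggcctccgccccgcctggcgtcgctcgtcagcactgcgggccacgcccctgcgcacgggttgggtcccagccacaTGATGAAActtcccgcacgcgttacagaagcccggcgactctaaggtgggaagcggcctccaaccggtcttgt
Hspa5: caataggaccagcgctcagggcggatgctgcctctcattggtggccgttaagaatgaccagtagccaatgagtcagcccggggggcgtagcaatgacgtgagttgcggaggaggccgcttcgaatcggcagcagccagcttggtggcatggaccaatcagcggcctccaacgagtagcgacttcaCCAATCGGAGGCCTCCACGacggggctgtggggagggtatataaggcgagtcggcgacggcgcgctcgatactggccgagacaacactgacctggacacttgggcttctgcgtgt
Hsp90b1: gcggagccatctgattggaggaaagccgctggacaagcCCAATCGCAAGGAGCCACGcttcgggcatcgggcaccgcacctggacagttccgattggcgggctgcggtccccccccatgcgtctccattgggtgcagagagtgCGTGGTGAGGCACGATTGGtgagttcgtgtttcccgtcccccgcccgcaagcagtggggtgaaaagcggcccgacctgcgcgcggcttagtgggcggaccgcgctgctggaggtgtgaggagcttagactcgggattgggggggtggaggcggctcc
Herpud1: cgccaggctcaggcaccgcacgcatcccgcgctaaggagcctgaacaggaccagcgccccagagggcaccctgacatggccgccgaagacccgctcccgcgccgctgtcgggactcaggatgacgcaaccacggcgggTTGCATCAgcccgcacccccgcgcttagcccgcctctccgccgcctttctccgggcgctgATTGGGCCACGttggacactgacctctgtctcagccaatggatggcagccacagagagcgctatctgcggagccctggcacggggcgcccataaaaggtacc

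The KO library held 202946827 UMIs (unique molecular identifiers, each marking 1 captured transcript) and the WT library 235652476. After filters and doublet removal 10932 cells from KO tumours and 9027 from WT tumours were kept, with medians of 10825 and 14220 UMIs per cell, and 24 cell barcodes occurred in both libraries. Doublets made up 2.98% of the filtered KO cells and 1.71% of the WT cells. Cells were put in classes by fixed marker genes, called type-like here, and the 13 classes of 50 or more cells per library were compared. Free RNA came to an estimated 2.72% of UMIs in each library. In each of the 12 immune classes every measured melanoma marker was at least 1.5-fold lower in KO tumours, and the part of such RNA in the member values was not tested. Dgat1 itself was counted at 17.9 CPM in melanoma-like cells of KO tumours and 27.9 CPM in those of WT tumours. Which part of the gene was edited was not stated, and a transcript count therefore does not check the genotype label. Although the sort was for CD45, 125 melanoma-like cells from KO tumours and 334 from WT tumours were present. Their CD45 transcript, Ptprc, was at 18.8 and 16 CPM in KO and WT tumours, against 1152 and 958 CPM in CD8 T-like cells. All 5 melanoma markers were detected in them, summing to 14009 CPM in KO tumours and 15128 CPM in WT tumours.

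For each class the raw UMIs of all cells were summed per library and divided by the class total, which gives CPM, counts per 1000000 UMIs of the class. Each comparison is the log2 ratio of CPM, KO over WT, with an exact 95% interval, and is given for genes with at least 50 UMIs over both libraries in the class ("measured"). A difference of at least 1.5-fold, a log2 ratio of 0.58 either way, is counted beside the share of all measured genes of that class that lie as far out. All 36 members were measured in melanoma-like, CD8 T-like and macrophage-like cells, and between 23 and 35 in the other classes. A member is measured in a class only where it is abundant enough there, so counts over measured members leave out the rest.

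In melanoma-like cells the ATF4 targets were higher in KO tumours and the ER chaperones as a list were not. All 11 ATF4 targets had a log2 ratio above 0, with a median of 0.49, against 0.04 over the 12014 genes measured in the class. The 13 chaperones had a median of -0.18, with 5 above 0. Of the 36 members, 5 were at least 1.5-fold higher, beside a background of 7.08% of measured genes, and 0 were at least 1.5-fold lower, beside 7.41%. The 5 were Trib3, Herpud1, Dnajb9, Atf4 and Atf5.

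Among the ATF4 targets that act in signalling, Trib3, a pseudokinase that feeds back on ATF4, was at 40.7 CPM in KO tumours and 24.1 CPM in WT tumours, a log2 ratio of 0.76 (0.56 to 0.96). The transcription factor Atf5 was at 46.9 CPM in KO tumours and 29.8 CPM in WT tumours, 0.65 (0.47 to 0.84). Ddit3, which encodes CHOP, was at 201 CPM in KO tumours and 142 CPM in WT tumours, 0.50 (0.41 to 0.59). The intervals of these 3 genes lay clear of 0, and Trib3 and Atf5, but not Ddit3, passed 1.5-fold. Ppp1r15a was at 15.8 CPM in KO tumours and 11.2 CPM in WT tumours, 0.49 (0.17 to 0.81). Chac1, which degrades glutathione, was at 11.4 CPM in KO tumours and 9.13 CPM in WT tumours, 0.32 (-0.05 to 0.69), and Sesn2, a stress-induced brake on mTORC1, at 12.4 CPM in KO tumours and 10.5 CPM in WT tumours, 0.24 (-0.12 to 0.59). The intervals of Chac1 and Sesn2 included 0.

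The enzymes among the ATF4 targets lay close together. Phgdh, which opens serine synthesis, was at 217 CPM in KO tumours and 151 CPM in WT tumours, a log2 ratio of 0.53 (0.44 to 0.61), and Psat1, the next enzyme, at 70.7 CPM in KO tumours and 52.8 CPM in WT tumours, 0.42 (0.27 to 0.57). Mthfd2 of mitochondrial one-carbon metabolism was at 187 CPM in KO tumours and 132 CPM in WT tumours, 0.49 (0.40 to 0.59), and Shmt2, which feeds that pathway from serine, at 60.5 CPM in KO tumours and 44.1 CPM in WT tumours, 0.46 (0.30 to 0.62). Asns, asparagine synthetase, was at 140.0 CPM in KO tumours and 107 CPM in WT tumours, 0.39 (0.29 to 0.49). Each of these 5 enzymes was higher in KO tumours by less than 1.5-fold, with an interval above 0.

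**Figure D1:**
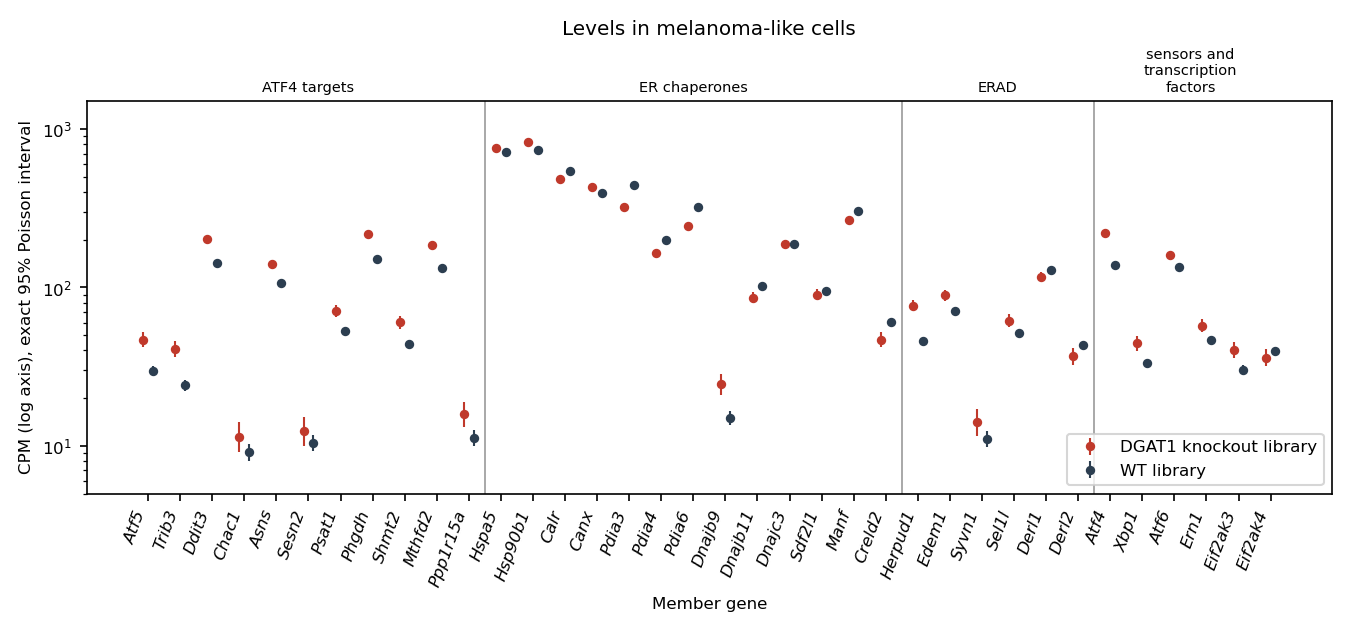
CPM on a log axis of the 36 members in melanoma-like cells of the KO library (red, left of each pair) and the WT library (dark, right), with exact 95% Poisson intervals. The 11 ATF4 targets are all higher in the KO library, while of the chaperones Pdia3, at 322 CPM in the KO library and 446 CPM in the WT library, is the farthest below.

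The chaperones of the melanoma-like cells lay on both sides of 0, most by small amounts. Hspa5, the ER Hsp70 also called BiP, was at 764 CPM in KO tumours and 713 CPM in WT tumours, a log2 ratio of 0.10 (0.06 to 0.14). Hsp90b1, the ER Hsp90, was at 826 CPM in KO tumours and 742 CPM in WT tumours, 0.16 (0.11 to 0.20), and the lectin chaperone Calr at 482 CPM in KO tumours and 545 CPM in WT tumours, -0.18 (-0.23 to -0.13). BiP and the ER Hsp90 were thus slightly higher and calreticulin slightly lower, each by far less than 1.5-fold. The disulphide isomerases were lower, Pdia3 at 322 CPM in KO tumours and 446 CPM in WT tumours, -0.47 (-0.54 to -0.41), Pdia6 at -0.40 (-0.47 to -0.32) and Pdia4 at -0.26 (-0.35 to -0.17). Dnajb9, a BiP co-chaperone and XBP1 target, stood apart at 24.5 CPM in KO tumours and 15 CPM in WT tumours, 0.71 (0.44 to 0.97). The other 6 chaperones lay between -0.37 (Creld2) and 0.13 (Canx).

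Herpud1, an ERAD scaffold whose promoter carries the ATF4 element and the related ER stress element, was at 76.9 CPM in KO tumours and 45.7 CPM in WT tumours in melanoma-like cells, a log2 ratio of 0.75 (0.60 to 0.90). Edem1, which directs misfolded glycoproteins to ERAD, was at 89.4 CPM in KO tumours and 71.1 CPM in WT tumours, 0.33 (0.20 to 0.46). Syvn1, the ERAD ubiquitin ligase, was at 0.36 (0.02 to 0.69) and its partner Sel1l at 0.26 (0.11 to 0.42). The channel proteins Derl1 and Derl2 were on the other side of 0, at -0.13 (-0.24 to -0.03) and -0.23 (-0.42 to -0.04). Atf4 itself was at 220.1 CPM in KO tumours and 138 CPM in WT tumours, 0.67 (0.58 to 0.75). Atf6 was at 159 CPM in KO tumours and 134 CPM in WT tumours, 0.25 (0.15 to 0.34), Ern1 at 0.30 (0.14 to 0.46), Eif2ak3 at 0.42 (0.22 to 0.61) and Xbp1 at 0.42 (0.23 to 0.61). Of the 6 sensors and transcription factors, Eif2ak4 at -0.13 (-0.33 to 0.07) had an interval that included 0 and the other 5 lay above it.

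Other genes of the ATF4 pathway, from a fixed list of 34, were higher in melanoma-like cells of KO tumours. Of 29 measured, 27 had a ratio above 0, 17 were at least 1.5-fold higher and 0 at least 1.5-fold lower, with a median of 0.64. Aldh1l2 of mitochondrial folate metabolism was at 38 CPM in KO tumours and 11.6 CPM in WT tumours, a log2 ratio of 1.71 (1.47 to 1.95). Slc7a11, the cystine importer, was at 18.4 CPM in KO tumours and 6.72 CPM in WT tumours, 1.46 (1.12 to 1.79), and Cth, which makes cysteine, at 20.6 CPM in KO tumours and 7.80 CPM in WT tumours, 1.4 (1.09 to 1.71). Gpt2, a mitochondrial alanine transaminase, was at 27.1 CPM in KO tumours and 10.1 CPM in WT tumours, 1.42 (1.15 to 1.69). These 4 enzymes and transporters had the ratios farthest above 0 by the bound nearest to 0. Of 12 cytosolic tRNA synthetases, many of them ATF4 targets, 11 had a ratio above 0 and 1 passed 1.5-fold, with a median of 0.33. Other XBP1 and ATF6 pathway genes, 48 measured of 50 in the files, had a median of 0.00, with 3 at least 1.5-fold higher and 1 lower. The lower one was Fkbp11, an ER prolyl isomerase, at 17.6 CPM in KO tumours and 51.4 CPM in WT tumours, -1.55 (-1.82 to -1.28).

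**Figure D2:**
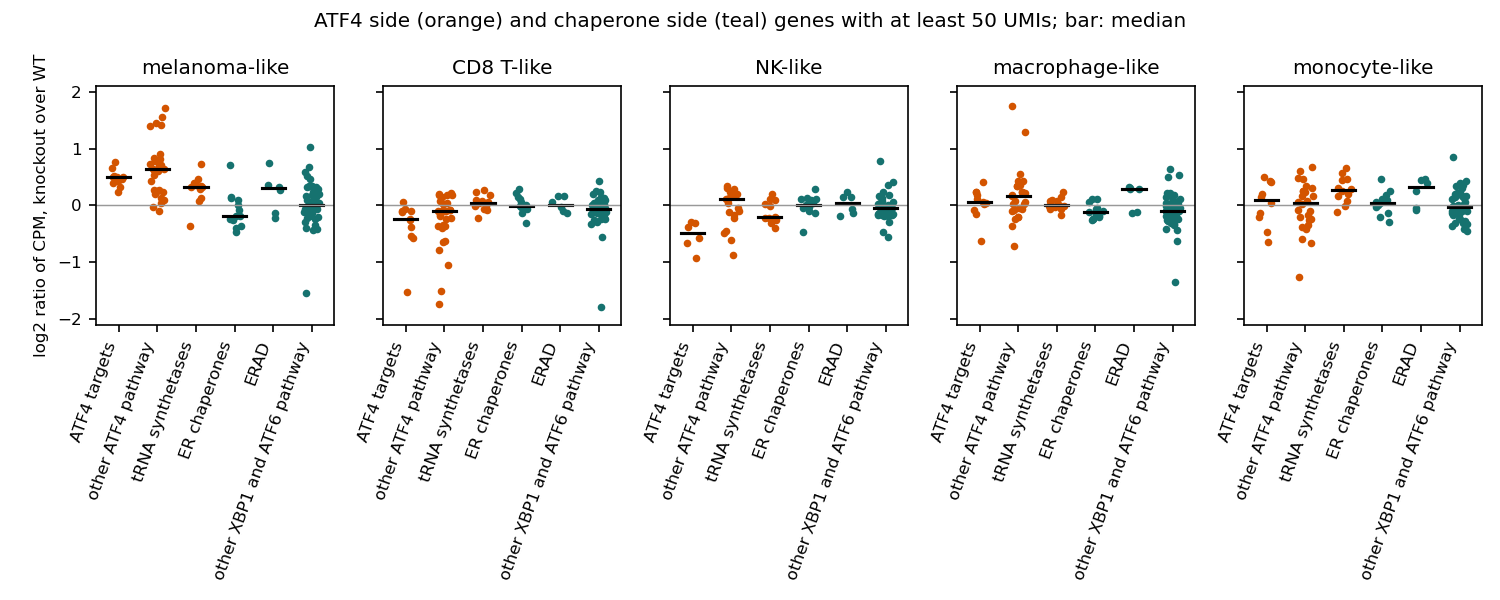
Log2 ratio of CPM, KO over WT library, for measured genes of 3 ATF4 lists (orange) and 3 chaperone, ERAD, XBP1 and ATF6 lists (teal) in 5 classes; each point is a gene and each bar a median. In melanoma-like cells the other ATF4 pathway genes have a median of 0.64 and the ER chaperones -0.18, and in CD8 T-like cells Ppp1r15a, Stc2 and Gdf15 lie lowest among the ATF4 lists.

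Other groups of genes were read beside these values in the same melanoma-like cells. Of 20 hypoxia and glycolysis genes 5 were at least 1.5-fold higher and 0 lower, with a median of 0.07. Vegfa was at 131 CPM in KO tumours and 73.5 CPM in WT tumours and Ndrg1 at 77.2 CPM in KO tumours and 35 CPM in WT tumours, whereas Ldha was at 1190.5 CPM in KO tumours and 1337 CPM in WT tumours. The 15 dissociation stress genes, which respond to tissue digestion, had a median of -0.11, with 1 at least 1.5-fold higher and 2 lower. The 6 macrophage markers summed to 822 CPM in KO tumours and 1182 CPM in WT tumours, of which Apoe made up 775 and 1084 CPM; 4 of the 6 were at least 1.5-fold lower in KO tumours and none was at 0. The part of these groups in the ATF4 values was not tested.

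The melanoma-like class was unevenly filled, and nearly all of its UMIs came from deep cells. The median depth was 7610 UMIs per cell in KO tumours and 88688 UMIs in WT tumours, with 49.6% of the KO cells and 74.0% of the WT cells in the deep cluster 17 and most others in the shallow cluster 9. Cells of at least 20000 UMIs, 54 from KO and 208 from WT tumours, held 96.7% and 98.1% of the class's UMIs. In those cells median depths were 125006 and 131710 UMIs, 11 of 11 ATF4 targets were above 0 with a median of 0.45, and the chaperone median was -0.17. Of the 4 ATF4 targets measured in the 71 KO and 126 WT cells under 20000 UMIs, 3 were above 0, with a median of 0.17, and in cluster 9, with 56 and 78 cells, 4 of 4 were, with a median of 0.70. The 10 cells with most Ddit3 held 68.0% of its UMIs in KO tumours and 23.1% in WT tumours. These 10 were taken from 125 KO and 334 WT cells, so they are a larger part of the KO cells and the shares are not alike. Without the 10 deepest cells of each library the ATF4 median was 0.59. Leaving out cells that held a UMI of the cycling genes Mki67 or Top2a kept 6.54% and 8.36% of the UMIs, from 52 KO and 94 WT cells. The cells kept had median depths of 1490.5 UMIs in KO tumours and 3018.5 UMIs in WT tumours, so depth changed along with cycling. The median of the 9 ATF4 targets measured in them was -0.14. In those cells Trib3 was at -0.95, Atf5 at -0.81 and Herpud1 at -0.15. Trib3 was also below 0, at -0.18, with clusters weighted alike and, at -0.45, as a mean of CPM per cell. Thinned to 5000 UMIs, 67 cells from KO tumours and 239 from WT tumours remained, of which 55.2% in KO tumours and 43.9% in WT tumours held an Atf4 UMI. Unthinned, the Atf4 shares were 68% in KO tumours and 74.9% in WT tumours.

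Within the deep melanoma-like cells the libraries overlapped widely cell by cell. The 11 ATF4 targets summed to a median of 876 CPM per cell in KO tumours, with quartiles of 382 and 1313, and to 595 CPM in WT tumours, with quartiles of 358 and 898. The chaperone sum had medians of 3609 CPM in KO tumours and 3606 CPM in WT tumours. The highest cell reached 3701 CPM of ATF4 targets in KO tumours and 2812 CPM in WT tumours. The lower quartiles of the ATF4 sum were thus close and the upper quartiles apart, which describes these cells and not the tumours, since cells are not replicates.

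**Figure D3:**
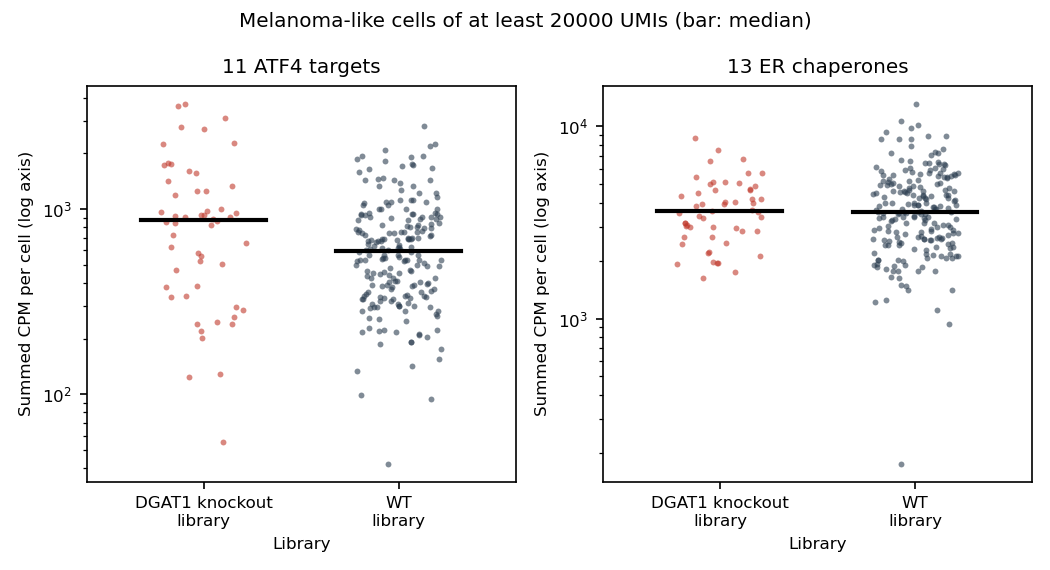
Summed CPM per cell on a log axis for the 11 ATF4 targets and the 13 ER chaperones in melanoma-like cells of at least 20000 UMIs, 54 from the KO library (left) and 208 from the WT library (right); each point is a cell and each bar a median. The ATF4 medians are 876 and 595 CPM and the chaperone medians 3609 and 3606 CPM, with wide overlap in both.

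In CD8 T-like cells, 2263 from KO and 1726 from WT tumours, the ATF4 targets lay mostly on the other side of 0. Their median was -0.24, with 1 of 11 above 0, against 0.05 over all measured genes, and the chaperones were at -0.01. Of the 36 members, 1 was at least 1.5-fold lower, beside a background of 6.72%, and 0 higher, beside 3.41%, so the count itself was below the background share. The 1 was Ppp1r15a, at 5.58 CPM in KO tumours and 16.1 CPM in WT tumours, a log2 ratio of -1.53 (-1.72 to -1.34). It was lower in KO tumours in 4 of 4 clusters of these cells with enough UMIs, by log2 ratios of -1.80 to -1.17, and cluster 2 held the largest part of the class in both libraries, 45.0% and 41.9%. With cells thinned to 5000 UMIs, which left out 63 KO and 66 WT cells, 2.55% of 2200 cells in KO tumours and 7.29% of 1660 cells in WT tumours held a Ppp1r15a UMI. The unthinned shares were 11% in KO tumours and 28% in WT tumours, and free RNA was estimated to give 17% of its UMIs in KO tumours and 6.23% in WT tumours. None of the compared classes lacked the gene, so no background share is given.

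Of the other 10 ATF4 targets of CD8 T-like cells 9 had a ratio below 0 by less than 1.5-fold. Among these 9, Chac1 at -0.25 and Sesn2 at -0.10 had intervals that included 0. Asns was at 27.5 CPM in KO tumours and 40.2 CPM in WT tumours, a log2 ratio of -0.55 (-0.64 to -0.45), Trib3 at 1.78 CPM in KO tumours and 2.63 CPM in WT tumours, -0.57 (-0.96 to -0.18), and Ddit3 at 16.1 CPM in KO tumours and 21 CPM in WT tumours, -0.38 (-0.51 to -0.25). Of the serine and one-carbon enzymes Phgdh, Mthfd2 and Psat1 were nearly level. Phgdh was at 173 CPM in KO tumours and 182 CPM in WT tumours and Mthfd2 at 92.9 CPM in KO tumours and 99.3 CPM in WT tumours. Psat1 was at 64.4 CPM in KO tumours and 69.8 CPM in WT tumours. The ratio of Shmt2, of the same group, lay farther below 0 than theirs. Hspa5 was at 364 CPM in KO tumours and 367 CPM in WT tumours, Hsp90b1 at 571 CPM in KO tumours and 515 CPM in WT tumours and Canx at 244 CPM in KO tumours and 200.1 CPM in WT tumours, log2 ratios of -0.01, 0.15 and 0.28. The log2 ratios of Asns, Trib3 and Ddit3 thus lay below those of Phgdh, Mthfd2, Psat1 and these chaperones. Of 30 other ATF4 pathway genes measured, 6 were at least 1.5-fold lower and 0 higher, among them Stc2 at 1.33 CPM in KO tumours and 4.45 CPM in WT tumours, Gdf15 at 0.302 CPM in KO tumours and 0.858 CPM in WT tumours and the mTORC1 inhibitor Ddit4 at 35.1 CPM in KO tumours and 54.8 CPM in WT tumours. In the XBP1 and ATF6 list Kdelr3, an ER retention receptor, was at 0.338 CPM in KO tumours and 1.16 CPM in WT tumours.

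Dissociation and hypoxia genes were also lower in CD8 T-like cells of KO tumours. Of 15 dissociation stress genes 7 were at least 1.5-fold lower, with a median of -0.56; Jun was at 14.7 CPM in KO tumours and 50.5 CPM in WT tumours and Hspa1a at 118 CPM in KO tumours and 203 CPM in WT tumours. Of 19 measured hypoxia and glycolysis genes 12 were at least 1.5-fold lower, with a median of -0.66. The melanoma markers summed to 21.0 CPM in these T cells of KO tumours and 71.7 CPM in those of WT tumours, with none of the 5 at 0. The part of these groups in the ATF4 values was not tested.

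NK-like cells, 582 from KO and 278 from WT tumours, had all 6 measured ATF4 targets below 0, with a median of -0.48. The chaperone median was 0.01. Of 31 members measured, 2 were at least 1.5-fold lower, beside 4.19%, and 0 higher, beside 4.82%. They were Ddit3, at 29.6 CPM in KO tumours and 46.7 CPM in WT tumours, a log2 ratio of -0.66 (-1.02 to -0.29), and Ppp1r15a, at 7.30 CPM in KO tumours and 13.8 CPM in WT tumours, -0.92 (-1.66 to -0.20). Ppp1r15a rested on few molecules. Ddit3 turned to 0.37 when only barcodes above each library's UMI threshold were used, which kept 24.1% of the KO cells and 10.1% of the WT cells. The amino acid transporters Slc7a5 and Slc3a2 of the other ATF4 list were at 15.5 CPM in KO tumours and 28.5 CPM in WT tumours and at 78 CPM in KO tumours and 119 CPM in WT tumours, and Sec24d of ER export at 40.9 CPM in KO tumours and 23.7 CPM in WT tumours. Dissociation stress genes had a median of -0.62 here and Jun was at 23.2 CPM in KO tumours and 125 CPM in WT tumours. Macrophage markers summed to 124 CPM in NK-like cells of KO tumours and 345 CPM in those of WT tumours, and melanoma markers to 43.3 and 200.1 CPM, with none at 0. The part of these genes was not tested.

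The CD4 T-like class compared 212 cells from KO tumours with 54 from WT tumours, at median depths of 12976 and 9342 UMIs, with 72.2% of the KO cells and 50% of the WT cells in cluster 15. Of 31 members measured, 9 were at least 1.5-fold higher, beside a background of 13.6%, and 0 lower, beside 9.87%. The chaperones had a median of 0.48 with 12 of 13 above 0, and Hsp90b1 was at 454 CPM in KO tumours and 244 CPM in WT tumours, a log2 ratio of 0.89 (0.65 to 1.15). Pdia6 was at 1.02 (0.58 to 1.48), Canx at 0.74 (0.41 to 1.09) and Calr at 0.64 (0.43 to 0.86). Without cells that held a UMI of Mki67 or Top2a, Pdia6 was at 0.11, Canx at 0.38 and Calr at 0.37. In the cells left 3 members were at least 1.5-fold higher, and the share of all measured genes there was not computed. With stricter gates Calr was at 0.39. Xbp1 was at 61.5 CPM in KO tumours and 29.9 CPM in WT tumours, 1.04 (0.35 to 1.82), Eif2ak4 at 1.06 (0.03 to 2.31) and Derl1 at 0.60 (0.03 to 1.23). Asns was at 21.4 CPM in KO tumours and 6.65 CPM in WT tumours, but the WT value rested on 4 UMIs in 1 cell. In the other lists Rpn1 was at 1.07 (0.53 to 1.65), Slc7a1 at 0.91 (0.37 to 1.5), Fkbp2 at 0.80 (0.24 to 1.41) and Vcp at 0.69 (0.37 to 1.04), and on the lower side Ddit4 was at -1.18 (-1.55 to -0.80) and Atf3 at -1.42 (-2.3 to -0.48). Macrophage markers summed to 71.7 CPM in CD4 T-like cells of KO tumours and 432 CPM in those of WT tumours, with none of the 6 at 0. Jun was at 22.9 CPM in KO tumours and 83.1 CPM in WT tumours and Hspa1a at 122 CPM in KO tumours and 194 CPM in WT tumours. The part of these genes was not tested.

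Treg-like cells, 115 from KO and 89 from WT tumours, had 12 of 12 measured chaperones above 0, with a median of 0.28. Of 31 members measured, 1 was at least 1.5-fold higher with an interval above 0, Creld2, at 33.4 CPM in KO tumours and 19.3 CPM in WT tumours, and 1 was lower, Ppp1r15a, at -0.74 (-1.53 to 0.05); the background was 8.97% higher and 6.7% lower. In these cells Hspa1a was at 98.4 CPM in KO tumours and 317 CPM in WT tumours and Jun at 24.7 CPM in KO tumours and 46.3 CPM in WT tumours. Macrophage markers summed to 79.5 CPM in KO tumours and 126 CPM in WT tumours, with none of the 6 at 0, and the part of these genes was not tested. Shmt1 was at 1.03 (0.49 to 1.6), Iars at 0.70 (0.26 to 1.15) and Tars at 0.63 (0.25 to 1.02), while Sqstm1 was at -1.14 (-1.52 to -0.78), Ddit4 at -0.91 (-1.16 to -0.65), Ero1l at -0.84 (-1.12 to -0.56) and Erlec1 at -0.68 (-1.06 to -0.29). B-like cells were few, 63 from KO and 150 from WT tumours, and only 2 ATF4 targets were measured. There 3 of 24 members were at least 1.5-fold higher, beside 11.8%, and 3 lower, beside 8.96%; with an interval clear of 0 they were Eif2ak4 at 0.74 (0.05 to 1.4), Eif2ak3 at 0.60 (0.17 to 1.03) and Manf, a secreted BiP partner, at -0.79 (-1.29 to -0.31). In these B-like cells 11 of 41 measured XBP1 and ATF6 pathway genes were at least 1.5-fold lower and 3 higher, P4hb at -1.02 (-1.76 to -0.34) among the lower. Cebpb was at 159.9 CPM in KO tumours and 29.1 CPM in WT tumours and Atf3 at 94.6 CPM in KO tumours and 23.3 CPM in WT tumours. B-like cells also held 615 CPM of macrophage markers in KO tumours, against 1038 CPM in WT tumours. Plasma cell markers came to 194 CPM in KO tumours, against 286 CPM in WT tumours, nearly all from the highest marker. Jun (65.3 against 32.4 CPM) and Fos (29.3 against 12.5 CPM) were higher in KO tumours. Hspa1a was lower there (42.8 against 54.1 CPM). How far any of these bear on the B-like ratios was not tested.

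In macrophage-like cells, 1469 from KO and 2582 from WT tumours, members differed little. The ATF4 target median was 0.07, the chaperone median -0.12, ERAD 0.29 and the sensors 0.25. Within single clusters the sensor median ran from -0.002 to 0.19, below the pooled value in each, and the chaperone median from -0.12 to 0.02. The ERAD median ran from -0.09 to 0.47 and the ATF4 median from -0.02 to 0.24. Of 36 members 0 were at least 1.5-fold higher, beside 7.25%, and 1 lower, beside 5.69%. The 1 was Psat1, at 22.9 CPM in KO tumours and 35.3 CPM in WT tumours, a log2 ratio of -0.62 (-0.75 to -0.50), which was below 0 in 6 of 6 clusters. Within those clusters its ratios ran from -0.66 to -0.29, and cluster 4 held the largest part of the class in KO tumours, 21.3%, and cluster 7 in WT tumours, 27.1%. With clusters weighted alike 0 members were at least 1.5-fold lower and 2 higher, and the share of all measured genes at that setting was not computed. Atf4 was at 139 CPM in KO tumours and 98.8 CPM in WT tumours, 0.49 (0.43 to 0.55), and farthest up in cluster 7, at 250.4 CPM in KO tumours and 136 CPM in WT tumours. Hspa5 was at 756 CPM in KO tumours and 793 CPM in WT tumours and Calr at 787 CPM in KO tumours and 889 CPM in WT tumours. Of the other ATF4 genes Slc7a11 was at 44.9 CPM in KO tumours and 13.3 CPM in WT tumours, 1.76 (1.63 to 1.88), and the secreted stress factor Gdf15 at 43.5 CPM in KO tumours and 71.7 CPM in WT tumours, -0.72 (-0.81 to -0.63). Txndc11 was at 0.64 (0.55 to 0.74), and Fkbp11 and Aldh1l2, each under 2 CPM, at -1.34 (-2.21 to -0.56) and 1.3 (0.51 to 2.09).

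In monocyte-like cells, 2509 from KO and 1277 from WT tumours, the ERAD median was 0.32, the sensors 0.25, the ATF4 targets 0.10 and the chaperones 0.05. The ATF4 median differed in sign between clusters, at 0.17 and 0.15 in clusters 0 and 1 and -0.33 and -0.20 in clusters 4 and 5. The chaperone medians of these clusters were -0.15, 0.11, 0.16 and 0.18. The ATF4 median was thus above the chaperone median in clusters 0 and 1 and below it in clusters 4 and 5. Of 35 members 1 was at least 1.5-fold higher, beside 6.48%, and 1 lower, beside 4.7%. Eif2ak3, the PERK gene, was at 36.1 CPM in KO tumours and 22.4 CPM in WT tumours, a log2 ratio of 0.69 (0.51 to 0.87), and Ppp1r15a, whose product undoes PERK's phosphorylation, at 32.2 CPM in KO tumours and 50.4 CPM in WT tumours, -0.65 (-0.79 to -0.51). Different clusters held the largest part of the class, cluster 1 in KO tumours with 36.6% and cluster 0 in WT tumours with 32%. In the other lists Txndc11 was at 0.85 (0.71 to 0.99), Iars at 0.65 (0.46 to 0.85), Slc7a1 at 0.61 (0.44 to 0.78) and Aldh18a1 at 0.68 (0.39 to 0.97), against Gdf15 at -1.26 (-1.52 to -0.99) and Gadd45a at -0.66 (-1.01 to -0.31). Macrophage markers summed to 1504 CPM in monocyte-like cells of KO tumours and 2486 CPM in those of WT tumours, and their part was not tested.

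Non-classical monocyte-like cells, 225 from KO and 118 from WT tumours, had 3 measured ATF4 targets, all below 0. Of 24 members 1 was at least 1.5-fold higher, beside 9.34%, and 3 lower, beside 6.95%. Ppp1r15a was at 38.5 CPM in KO tumours and 74.2 CPM in WT tumours, a log2 ratio of -0.95 (-1.44 to -0.46), Ddit3 at -0.70 (-1.36 to -0.04), Sdf2l1, a BiP cofactor, at -0.71 (-1.42 to -0.01), and Eif2ak4 at 0.81 (0.05 to 1.63). Slc7a11 was at -1.55 (-2.21 to -0.91) and Slc3a2, its partner chain, at -0.76 (-1.14 to -0.38), with Txndc11 at 1.31 (0.65 to 2.03) and Slc1a5 at 1.01 (0.30 to 1.78). Dissociation stress genes had a median of -0.41 there, and their part was not tested. In neutrophil-like cells, 227 from KO and 113 from WT tumours, 1 of 10 measured chaperones was above 0, with a median of -0.36. Of 23 members 1 was at least 1.5-fold higher, beside 9.47%, and 1 lower, beside 12.6%. The higher one was Xbp1, at 290.4 CPM in KO tumours and 129 CPM in WT tumours, a log2 ratio of 1.17 (0.82 to 1.54), and the lower one Sel1l, at -0.77 (-1.54 to 0.01), with an interval that included 0. Gdf15 was at 59.4 CPM in KO tumours and 6.38 CPM in WT tumours, from 70 and 4 UMIs, and Eif2s2, an eIF2 subunit, at -0.89 (-1.31 to -0.47).

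Among dendritic cells, cDC1-like cells (191 from KO and 201 from WT tumours) had an ATF4 median of -0.01 and a chaperone median of -0.04, with 4 of 13 chaperones above 0. In cluster 18, which held 57.1% of the KO cells and 66.2% of the WT cells, these medians were 0.30 (6 ATF4 targets measured) and 0.19, with 12 of 13 chaperones above 0, so the direction turned. Of 34 members 2 were at least 1.5-fold higher, beside 6.63%, and 0 lower, beside 6.65%; Sesn2 was at 19.7 CPM in KO tumours and 11.2 CPM in WT tumours, a log2 ratio of 0.81 (0.29 to 1.34), and Asns at 0.78 (-0.01 to 1.59). All 12 tRNA synthetases were above 0 there, with a median of 0.39, Tars at 0.92 (0.58 to 1.27) and Wars at 0.71 (0.41 to 1.0), and Slc7a11 was at 2.83 (1.9 to 3.91), Slc7a5 at 50.5 CPM in KO tumours and 26.8 CPM in WT tumours and Gdf15 at -2.57 (-4.09 to -1.33). The 6 macrophage markers summed to 973 CPM in cDC1-like cells of KO tumours and 3034 CPM in those of WT tumours, and their part was not tested. In cDC2-like cells (301 from KO and 114 from WT tumours) 12 of 13 chaperones were above 0, with a median of 0.24. There 2 of 32 members were at least 1.5-fold higher, beside 8.72%, and 0 lower, beside 3.53%; Pdia4 was at 66.6 CPM in KO tumours and 41.2 CPM in WT tumours, 0.69 (0.36 to 1.04), and Psat1 at 0.67 (0.03 to 1.37). Dissociation stress genes had a median of 0.60 in cDC2-like cells and 0.28 in cDC1-like cells, and their part was not tested. Atf3 was at 0.68 (0.46 to 0.90), Ero1l at 0.63 (0.35 to 0.91) and Spcs1 at -0.62 (-0.87 to -0.37). In mature DC-like cells (281 from KO and 174 from WT tumours) 2 of 28 members were at least 1.5-fold higher, beside 7.97%, and 1 lower, beside 4.26%. Sesn2 was at 23.4 CPM in KO tumours and 11.3 CPM in WT tumours, 1.05 (0.44 to 1.71), Sdf2l1 at 0.98 (0.21 to 1.81) and Ddit3 at 21.7 CPM in KO tumours and 33.8 CPM in WT tumours, -0.64 (-1.09 to -0.20). Slc7a5 was at 1.57 (0.84 to 2.37), Slc7a11 at 0.64 (0.32 to 0.98), Sec24d at -1.11 (-1.7 to -0.52) and Tars at -1.22 (-2.05 to -0.42).

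Across the 13 classes, the ATF4 target median was above 0 in 6 of 13 classes, from -0.72 in B-like cells, with 2 members measured, to 0.49 in melanoma-like cells. The chaperone median was above 0 in 6 of 13, the ERAD median in 10 and the median of sensors and transcription factors in 11. Set against the median of all measured genes of the class, which was above 0 in most classes, the ATF4 median was higher in 6 of 13, the chaperone median in 3, ERAD in 7 and the sensors in 10. The ATF4 median was above the chaperone median in melanoma-like, neutrophil-like (0.20 against -0.36, with 3 ATF4 targets measured), macrophage-like, monocyte-like and cDC1-like cells, and below it in the other 8 classes. Whether classes differ was not tested.

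Single genes ran across classes in different ways. Xbp1 was above 0 in 13 of 13 classes, at log2 ratios of 0.02 to 1.17, with intervals above 0 in 11; scaled by the median gene ratio, or by totals without mitochondrial, ribosomal and haemoglobin genes, it was above 0 in 12 of 13. Eif2ak3 was above 0 in 12 of 13 classes, and in 11 of 13 under either other scaling. Atf4 had an interval above 0 in 7 of 13 classes and below 0 in 1. Ppp1r15a had an interval below 0 in 5 of the 11 classes where it was measured and above 0 in melanoma-like cells alone. Ddit3 had an interval below 0 in 5 of 12 classes and above 0 in 2, macrophage-like and melanoma-like cells. These classes share 2 libraries, so they are not independent replicates.

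**Figure D4:**
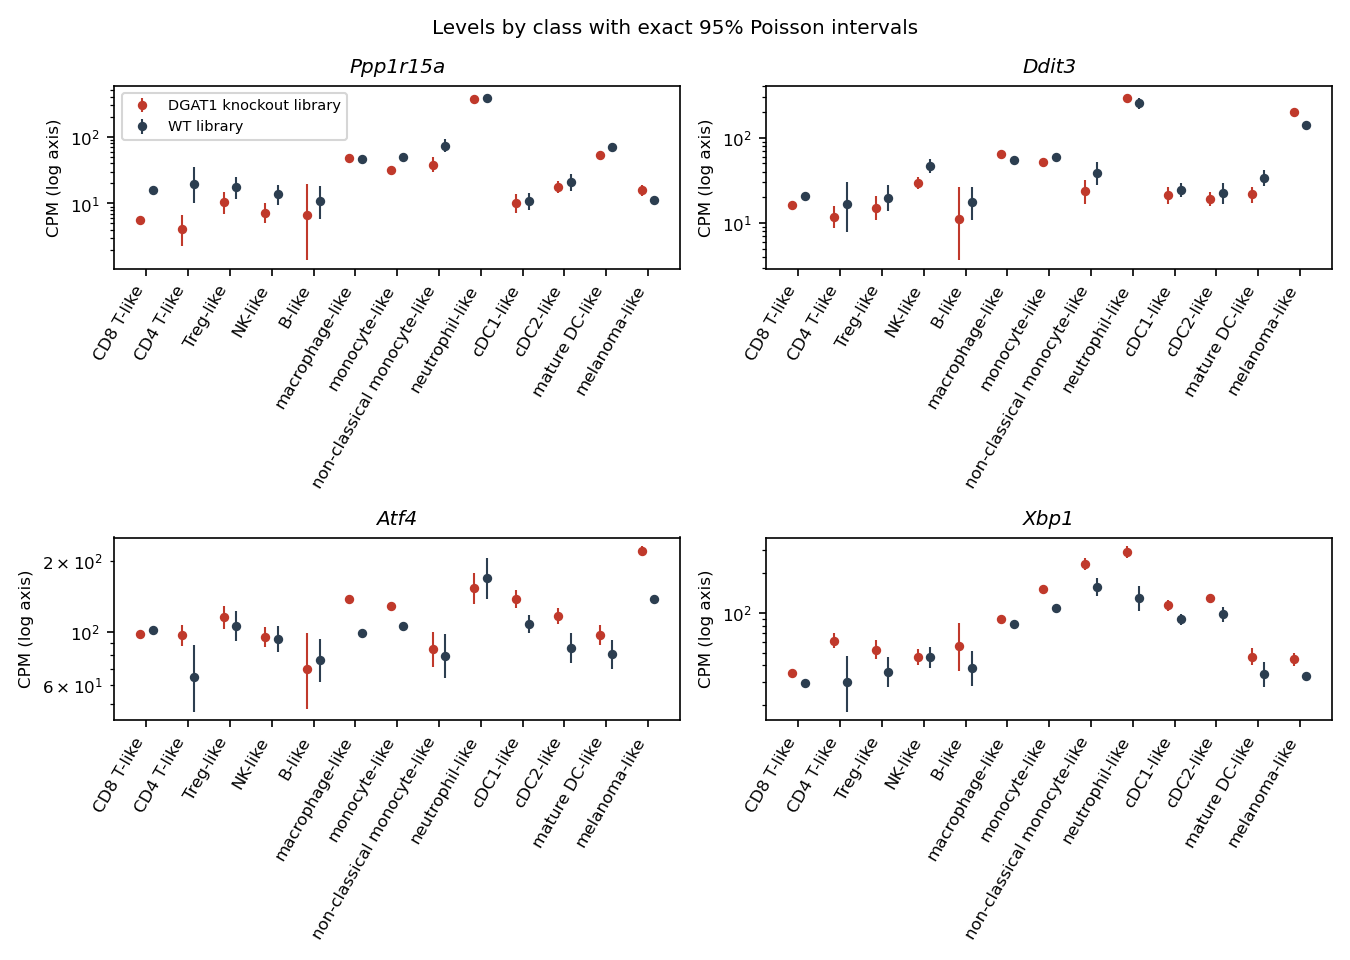
CPM on a log axis of Ppp1r15a, Ddit3, Atf4 and Xbp1 in 13 classes, KO library (red, left of each pair) and WT library (dark, right), with exact 95% Poisson intervals. Ppp1r15a and Ddit3 are highest in neutrophil-like cells of both libraries, Atf4 in melanoma-like cells of the KO library at 220.1 CPM, and Xbp1 is at or above its WT level in each class.

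Levels of single members differed widely between the 13 classes. Ppp1r15a had its highest level in neutrophil-like cells, 373 CPM in KO tumours and 386 CPM in WT tumours, as did Ddit3, at 291 CPM in KO tumours and 254 CPM in WT tumours. Trib3, Asns and Shmt2 were highest in melanoma-like cells of both libraries. Ern1, the IRE1 gene, was highest in NK-like cells, at 265 CPM in KO tumours and 252 CPM in WT tumours. Eif2ak3 was highest in B-like cells, at 164 CPM in KO tumours and 108 CPM in WT tumours, and Herpud1 in cDC1-like cells, at 149 CPM in KO tumours and 118 CPM in WT tumours. Phgdh was highest in Treg-like cells of KO tumours, at 226 CPM, and in CD8 T-like cells of WT tumours, at 182 CPM.

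The chaperones most often counted were alike from class to class. Calr was among the 3 highest chaperones in 13 of 13 classes and Hspa5 and Hsp90b1 in 12 each. Hspa5 ran from 108 CPM in mature DC-like cells to 764 CPM in melanoma-like cells in KO tumours, and from 100.3 CPM in mature DC-like to 793 CPM in macrophage-like cells in WT tumours. Mature DC-like cells had the lowest level of Hspa5, Hsp90b1, Pdia4, Pdia6 and Manf in both libraries. Among ATF4 targets Mthfd2 was in the first 3 in 12 classes, from 27.0 to 187 CPM in KO tumours and from 34.0 to 176 CPM in WT tumours. Edem1 was so among ERAD genes in 12 classes, from 68.8 to 214 CPM in KO tumours and from 61.7 to 179 CPM in WT tumours. Atf6 was so among sensors in 13 classes, from 52.7 to 289.8 CPM in KO tumours and from 42.8 to 261 CPM in WT tumours. These orders choose which genes to name, and levels of different genes were not compared.

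Some members overlap the span of a neighbouring gene, and whether this affects their counts was not tested. Ddit3 stood on 2 rows of the tables, of which the second held 0 UMIs, and the rows were added; the gene (chr10:127290774-127296288) also overlaps Mars on the other strand. Sesn2 overlaps Gm12981, Hsp90b1 overlaps Gm15344 and Manf overlaps Rbm15b on the same strand, in the GENCODE M21 annotation. On the other strand Atf5 overlaps Nup62 and Il4i1, Ppp1r15a overlaps Tulp2, Shmt2 overlaps Ndufa4l2 and Herpud1 overlaps Gm15890. Pdia3, Pdia6, Dnajb11, Manf, Syvn1 and Derl2 also overlap genes on the other strand. Use of strand in the counting was not stated.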

How the data were processed

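The authors deposited raw UMI counts per gene and barcode for 2 libraries, all 2270213 (KO) and 2638010 (WT) barcodes included. They were made with Cell Ranger 7.2.0, per the file headers, on mm10, per the submitters' processing notes; the annotation version was not given in the sources used here. Cells were barcodes above a UMI threshold of 9263 (KO) or 16615 (WT), or with at least 500 UMIs and a profile unlike that of barcodes with at most 100 UMIs (10000 simulations, false discovery rate 0.01), which gave 12411 and 10402. At least 250 genes and at most 10% mitochondrial UMIs were required, leaving 11268 and 9184, and 336 and 157 doublets were removed with the Scrublet method in scanpy. Cells were clustered (2000 variable genes, 30 components, 15 neighbours, Leiden resolution 1) and classed by marker UMIs above the free RNA level; cells of no class, 2038 and 1606, were left out. Plasmacytoid DC-like cells, 101 and 31, and rarer classes were not compared. A gate needed a Poisson tail under 0.01 at 5% free RNA. Python 3.11.15, numpy 2.4.6, scipy 1.17.1, scanpy 1.11.5, scikit-learn 1.9.0 and leidenalg 0.10.2 were used.

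Log2 ratios have exact conditional 95% intervals and levels exact Poisson 95% intervals, which cover counting error only; the ratio code was tested on simulated data. Named with values were members at least 1.5-fold apart whose interval excluded no difference, the 3 members of each role with the highest CPM, and up to 4 genes each way of the other lists, ranked by the interval bound nearest to 0. Members, lists and tests were chosen with earlier results of these data known, and gate details after marker values were seen. Gene positions come from GENCODE M21. Alternatives covered cell calling, doublets, gates, clusters, cycling cells, scaling, free RNA and the UMI and fold minimums.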

Additional observations from a re-analysis of the deposited data

Results flagged for a closer look

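Psat1, of serine synthesis, had a log2 ratio of 0.67 in cDC2-like cells and -0.62 in macrophage-like cells, so the KO library was higher in one class and lower in the other. Sdf2l1, a BiP cofactor, had a log2 ratio of 0.98 in mature DC-like cells and -0.71 in non-classical monocyte-like cells. In both pairs each interval lay clear of 0, and with 1 library per group the difference between the classes was not tested.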

How the results depend on the processing

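No paired analysis was possible because each group has 1 library. Of 252 alternative values for list medians and member counts in CD8 T-like, macrophage-like, monocyte-like and melanoma-like cells, 209 stayed and 43 moved. A count stayed if within 1.5 times of the reported one. A list median stayed if it lay between the medians of its members' lower and upper interval bounds, which are not an error of the median. A reversal was counted only for a reported ratio of at least 1.5-fold, which none of these medians reached, and not for counts. No reversal could therefore be counted among these values. The ATF4 target median log2 ratio of CD8 T-like cells was below 0 in 15 of 15 alternatives, from -0.29 to -0.14, and that of melanoma-like cells above 0 in 15 of 16. The causes of the shifts below were not tested. A share of all measured genes is given below only for melanoma-like cells left after removing those with a UMI of Mki67 or Top2a. The other member counts have no such share beside them and are not results about the members. Leaving out 10 deep cells and the minimum of 20000 UMIs per cell were chosen after seeing the data. Cells with a UMI of Mki67 or Top2a are called cycling cells below. In the melanoma-like class their median depth was 100179 UMIs in KO tumours and 118874 UMIs in WT tumours. The melanoma-like cells left without them had 1490.5 and 3018.5 UMIs, so depth and cycling cannot be told apart there.

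In CD8 T-like cells the chaperone median was -0.16 without cells holding a UMI of Mki67 or Top2a, -0.063 as a mean of per-cell CPM and -0.064 with the median of gene ratios as the scale. Members at least 1.5-fold lower there numbered 3 with only barcodes above the UMI threshold, 2 without the cycling cells, 2 as a mean of per-cell CPM, 3 by the median of gene ratios, 2 by totals without mitochondrial, ribosomal protein and haemoglobin genes, and 5 at the lowest fold tried. In macrophage-like cells the chaperone median was -0.20 with at most 5% mitochondrial UMIs and -0.040 with clusters weighted alike; members lower numbered 0 with classes from clusters, 0 with clusters weighted alike and 0 at a fold of 2; members higher numbered 2 with clusters weighted alike, 1 without the cycling cells and 5 at the lowest fold tried. In monocyte-like cells the chaperone median was -0.070 above the UMI threshold; members higher numbered 3 above the threshold, 0 with classes from clusters, 9 at the lowest fold tried and 0 at a fold of 2; members lower numbered 2 above the threshold, 2 with clusters weighted alike, 2 at the lowest fold tried and 0 at a fold of 2.

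In melanoma-like cells the ATF4 target median was 0.79 with clusters weighted alike and 0.62 as a mean of per-cell CPM. It was -0.14 without the cycling cells, which left shallow cells. The chaperone median was -0.10 with at most 5% mitochondrial UMIs, -0.031 with clusters weighted alike, -0.46 without the cycling cells, -0.28 as a mean of per-cell CPM and -0.27 without the 10 deepest cells of each library. Members higher numbered 8 with at most 5% mitochondrial UMIs, 15 with clusters weighted alike, 11 as a mean of per-cell CPM and 17 at the lowest fold tried. They numbered 0 at a fold of 2 and 9 without the 10 deepest cells. Members lower numbered 1 as a mean of per-cell CPM and 3 at the lowest fold tried. Without the cycling cells 7 were lower, beside 14.6% of all genes measured in the cells left.

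Reversed single values were the Ddit3 log2 ratio in NK, 0.37 above the UMI threshold, and in melanoma-like cells Trib3 at -0.18 with clusters weighted alike, -0.95 without the cycling cells and -0.45 as a mean of per-cell CPM, and Atf5 at -0.81 and Herpud1 at -0.15 without the cycling cells. Shares of melanoma-like cells with a UMI, KO minus WT in percentage points, were without thinning -14.0 for Trib3, -15.9 for Ddit3, -14.0 for Asns, -12.2 for Ppp1r15a and -6.85 for Atf4, against 4.52, 4.19, 8.61, 7.76 and 11.3 thinned. Of 1204 other values 1058 held, 135 moved and 11 reversed. CD4 T, Treg, non-classical monocyte and cDC2 classes had no cluster of their name, so that alternative gave no value for them. Depth limits the smaller classes, where as few as 2 ATF4 targets were measured.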
